A study of Mus musculus with 6 samples.

Results

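The expression of 10 genes of the bone morphogenetic protein (Bmp) pathway was followed in dental epithelial organoids (DEOs) grown in 4 media that all contained Noggin. The genes were chosen by name, as the 10 symbols Bmp2, Bmp4, Bmp7, Fst, Sostdc1, Id1, Id2, Id3, Bambi and Smad6, out of 47360 gene symbols in the deposited table. They comprise 3 ligands, 2 secreted antagonists and 5 genes that are induced by Bmp signaling. Each symbol had a single entry, and all 10 reached the minimum level of 1 FPKM in every comparison.

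The DEOs were grown from aDESCs, the adult dental epithelial stem cells, of the apical incisor buds of wild-type female C57BL/6J mice aged 9 weeks, embedded in Matrigel for 14 days. Every medium held Wnt3a- and R-spondin1-conditioned medium, EGF at 100 µg/ml, Noggin at 200 µg/ml, N-acetylcysteine and Y27632, and this base is called +N. The +ND medium also had DBZ (dibenzazepine), a γ-secretase inhibitor that blocks the release of the active Notch fragment, at 10 µM by the labels. The +NF medium had FGF10 at 100 µg/ml, and +NFD had both. No library without Noggin was analysed here, so the response of these genes to Noggin itself was not measured, and the media with Jagged1 (+NJ and +NFJ) were not analysed here.

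Bmp ligands bind pairs of type I and type II serine/threonine kinase receptors, which phosphorylate Smad1, Smad5 and Smad9. With Smad4 these enter the nucleus and induce a small set of direct targets, among them the Id genes and the feedback inhibitors Smad6 and Bambi. Noggin, follistatin (Fst) and sclerostin domain-containing 1 (Sostdc1, also called ectodin) act outside the cell, where they bind ligands and keep them from the receptors. In the tooth, Bmp signals pass between epithelium and mesenchyme, promote ameloblast differentiation and are restrained by Fst and Sostdc1.

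The values are FPKM, the fragments of a transcript per unit of its length and of the library total, and each medium had 1 library. A difference between media therefore has no replicate check, no p-value is given, and whether any difference exceeds the spread between cultures is unknown. Levels of a gene are listed in the order +N, +ND, +NF and +NFD. A ratio is the log2 of the quotient of FPKM + 1, a scale on which low genes appear to change less than they do. Genes needed 1 FPKM in the higher of both libraries, and a 2-fold ratio was the limit for a count. Intervals are 95% intervals for counting error alone, from approximate fragment numbers recovered from the steps between low FPKM values. By the same steps, +ND had about 0.755 times the depth of the +N library, while the other libraries had 1.00 (+NF) and 1.02 (+NFD) times. The 10 genes rested on about 127 to 17333 fragments per library, the fewest for Fst in +N and the most for Id3 in +NFD. Nrarp and Hes1, direct targets of Notch, were lower in both DBZ media (Nrarp at 18.2, 2.80, 9.12 and 2.60 FPKM, Hes1 at 157, 74.6, 109 and 80.1 FPKM). The other Notch target list genes stayed under 1 FPKM, with Hes5 listed at 0. The ERK feedback genes Dusp6 (64.1, 88.4, 226 and 176 FPKM) and Spry1 (4.77, 5.44, 17.9 and 21.7 FPKM) were higher in both FGF10 media. Spry2, Spry4, Etv4 and Etv5 were highest in +NFD, but Etv4 (log2 ratio 1.04) and Etv5 (1.09) were also more than 2-fold higher in +ND than in +N, without FGF10. Spred1 of the same list was at 24.9, 22.2, 37.8 and 23.9 FPKM, higher only in +NF.

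The 3 ligands did not move together. Bmp2 (chromosome 2, 133552159 to 133562885, plus strand, GRCm38) was the most abundant ligand in every medium, at 106, 98.5, 62.6 and 57.3 FPKM. Both libraries with FGF10 were lower than both without it, and DBZ made little difference. Its log2 ratio was −0.75 in +NF relative to +N (interval −0.80 to −0.71) and −0.77 in +NFD relative to +ND (interval −0.82 to −0.72). With DBZ the ratio was −0.11 without FGF10 and −0.13 with it.

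Bmp4 (chromosome 14, 46383520 to 46390669, minus strand) ran the other way, at 5.04, 11.3, 13.3 and 15.9 FPKM. Each of the 3 supplemented media was more than 2-fold above +N, with log2 ratios of 1.03 (interval 0.85 to 1.21) in +ND, 1.24 (interval 1.08 to 1.41) in +NF and 1.48 (interval 1.32 to 1.65) in +NFD. Gm15217 and Gm15222 overlap Bmp4 on the opposite strand, and since the strand setting of the counting is not stated, reads of these genes cannot be told apart from those of Bmp4.

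Bmp7 (chromosome 2, 172868012 to 172940321, minus strand) had the same order as Bmp4 with smaller steps, 12.6, 17.0, 21.5 and 24.6 FPKM. The largest of its ratios, 0.91 in +NFD relative to +N, stayed under the 2-fold limit. The level of Bmp2 was 21.0 times that of Bmp4 in +N, 8.70 times in +ND, 4.70 times in +NF and 3.60 times in +NFD. It was 8.42 times the level of Bmp7 in +N and 2.33 times in +NFD. The levels of the 3 ligand transcripts lay closest together in +NFD.

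**Figure D1:**
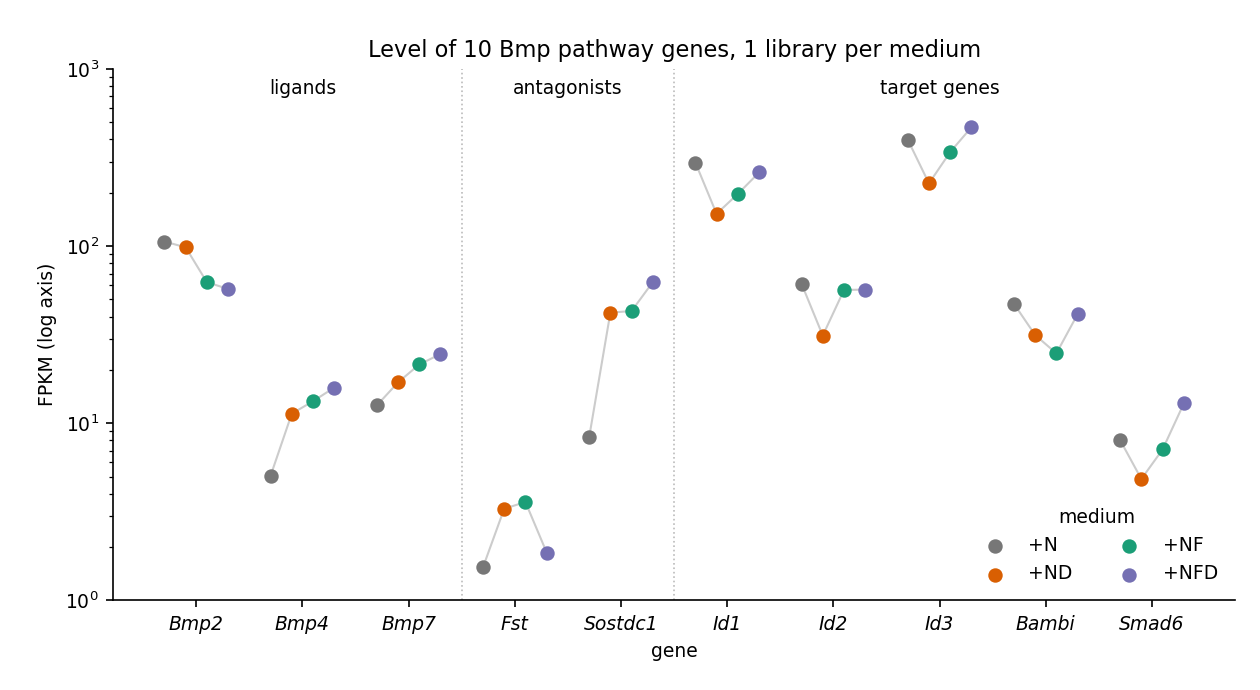
FPKM of the 10 genes (log axis) in +N, +ND, +NF and +NFD, with 1 point per library and grey lines joining the points of a gene only to guide the eye. Bmp4, Bmp7 and Sostdc1 are lowest in +N and highest in +NFD, Bmp2 is lowest in +NFD, and Id1, Id2, Id3 and Smad6 are lowest in +ND.

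Of the antagonists, Sostdc1 had the widest range among the 10 genes. Sostdc1 (chromosome 12, 36314169 to 36318452, plus strand) was at 8.33, 42.1, 43.0 and 62.7 FPKM. The +N library was far below the other 3, with log2 ratios of 2.21 (interval 2.07 to 2.35) for +ND, 2.24 for +NF and 2.77 (interval 2.64 to 2.90) for +NFD. DBZ alone and FGF10 alone gave levels that counting error does not separate (log2 ratio of +NF to +ND 0.03, interval −0.06 to 0.12). With DBZ beside FGF10 the log2 ratio to +NF was 0.53, under the 2-fold limit.

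Fst (chromosome 13, 114452262 to 114458730, minus strand), which binds activins more tightly than Bmps, was the lowest of the 10 genes, with 1.53, 3.29, 3.59 and 1.86 FPKM. It was higher with either addition alone, and the library with both lay near +N (log2 ratio 0.18, interval −0.04 to 0.39). The ratios were 0.76 in +ND and 0.86 in +NF relative to +N, under the 2-fold limit with 1 FPKM added to each value. Without that addition the same ratios were 1.10 and 1.23, past 2-fold. Gm47040 overlaps Fst on the opposite strand, with the same limit on strand as for Bmp4.

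The target genes form the second pattern. Id1, Id2 and Id3 encode helix-loop-helix proteins without a DNA-binding region that hold back differentiation factors, and Id1 and Id3 were the most abundant of the 10 genes. Id1 (chromosome 2, 152736251 to 152737410, plus strand) was at 296, 152, 197 and 260 FPKM. Id3 (chromosome 4, 136143497 to 136145755, plus strand) was at 399, 226, 340 and 469 FPKM. Id2 (chromosome 12, 25093801 to 25096092, minus strand) was at 61.3, 31.2, 56.5 and 56.8 FPKM. All 3 were lowest in +ND, and Id2 had nearly one level in the other 3 libraries, its +NF and +NFD values differing by less than counting error.

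Smad6 (chromosome 9, 63953076 to 64022059, minus strand), which blocks the receptor-activated Smads, was at 8.03, 4.84, 7.11 and 12.9 FPKM.

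The sequence upstream of 2 of these targets is shown because all 5 genes were lower in +ND than in +N and share a known kind of regulator. RefSeq promoter sequences on GRCm38.p6 were at hand for 4 of the 10 genes, namely Id2, Id3, Smad6 and Bmp4. Bases inside annotated exons were left out, which leaves 89 of the 250 bases before the start for Id2 (chr12:25096254-25096342, minus strand, in an intron of a longer Id2 transcript) and all 250 for Smad6 (chr9:64022060-64022309, minus strand). Capitals mark GGCGCC, the GC-rich motif of Smad1 and Smad5, and GTCT or its reverse complement AGAC, the short motif of Smad4.
Id2: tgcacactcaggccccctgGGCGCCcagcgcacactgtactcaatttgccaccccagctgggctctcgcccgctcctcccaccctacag
Smad6: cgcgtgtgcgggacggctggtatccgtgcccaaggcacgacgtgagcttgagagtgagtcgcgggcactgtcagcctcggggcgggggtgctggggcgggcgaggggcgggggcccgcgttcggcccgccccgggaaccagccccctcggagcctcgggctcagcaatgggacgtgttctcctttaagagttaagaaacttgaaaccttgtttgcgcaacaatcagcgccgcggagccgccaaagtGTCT

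In the full 250 bases, GGCGCC was present once for Id2, its first base at −231 from the start, and was not present in the Id3, Smad6 or Bmp4 windows. The Id3 window (chr4:136143572-136143821) lies inside the listed gene and wholly in annotated exons. It is therefore not sequence upstream of the listed gene start. For comparison, 9.59% of 32851 promoters held GGCGCC and 82.9% held GTCT or AGAC, and 1.32% held both with at most 12 bases between them, a pair that none of these 4 windows had. These matches are descriptions of letters in the windows and say nothing about binding.

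Bambi (chromosome 18, 3507957 to 3516404, plus strand), a receptor-like protein without a kinase, was at 47.3, 31.5, 24.8 and 41.3 FPKM. Bambi is the exception among the 5 targets, since its lowest library was +NF and not +ND. Of the 30 neighbouring pairs of levels over the 10 genes, 4 had a counting interval that included 0, and these were the Id2 pair of +NFD and +NF, the Sostdc1 pair of +NF and +ND, and for Fst both +NF with +ND and +NFD with +N.

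With DBZ and no FGF10 (+ND relative to +N), Sostdc1 and Bmp4 were at least 2-fold higher and none of the 10 genes was 2-fold lower. Of all 13173 genes compared, 5.88% were higher by the same limit and 5.29% lower. All 5 targets were lower, with log2 ratios of −0.96 for Id1 (interval −1.01 to −0.90), −0.95 for Id2, −0.82 for Id3, −0.63 for Smad6 and −0.57 for Bambi, against a median of 0.10 over all genes and 41.8% of all genes lower by any amount. At a limit of 1.5-fold, chosen after the values were seen, 4 of the 5 were lower, beside 11.6% of all genes lower and 17.3% higher. Centring on the median of all genes took Id1 and Id2 past 2-fold and Bmp4 to 0.93, under it.

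With DBZ in the presence of FGF10 (+NFD relative to +NF), none of the 10 genes passed 2-fold in either direction, beside 3.72% of all 13349 genes higher and 2.69% lower. The targets were now at 0.78 for Smad6, 0.71 for Bambi, 0.46 for Id3, 0.40 for Id1 and 0.0068 for Id2, where 57.2% of all genes were higher by any amount. The value of Id2 turned to −0.02 under upper-quartile scaling and to −0.04 when centred on the median, so a higher level holds for the other 4 targets only. At 1.5-fold, Smad6 and Bambi were higher (7.57% of all genes) and Fst was lower (6.17% of all genes).

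For Id1, Id3, Bambi and Smad6 the direction of the DBZ ratio thus differed with FGF10, while for Id2 the ratio with FGF10 could not be told from 0 (interval −0.06 to 0.08). The ratio with FGF10 minus that without was 1.41 for Smad6 (interval 1.20 to 1.62), 1.36 for Id1 (interval 1.29 to 1.43), 1.29 for Bambi, 1.28 for Id3 and 0.96 for Id2. Of 12774 genes that could be compared, 18.8% were likewise lower with DBZ alone and higher with DBZ beside FGF10. Sostdc1 and Fst had differences in the opposite direction, −1.67 and −1.44, and Bmp4 had −0.79. For Bmp2 the difference was −0.02 (interval −0.09 to 0.05), so its DBZ ratio was the same with and without FGF10 within counting error. These differences rest on 1 library per medium and were not tested.

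**Figure D2:**
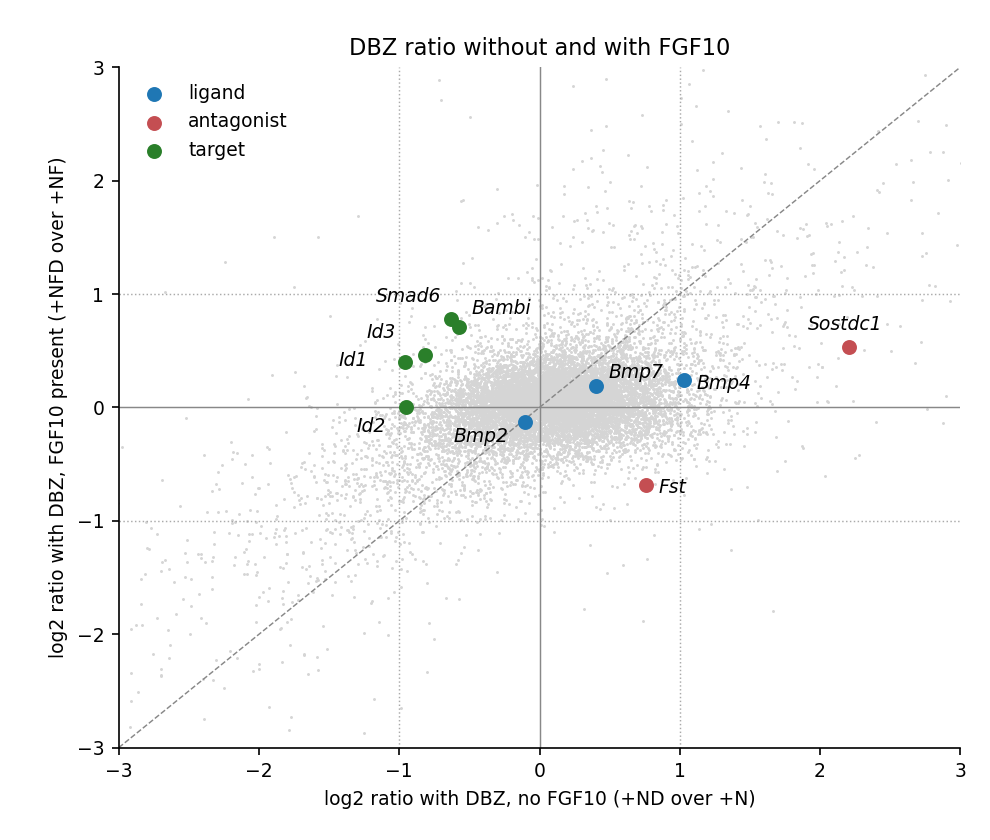
Log2 ratio with DBZ when FGF10 was absent (x axis, +ND over +N) and when it was present (y axis, +NFD over +NF), with the 10 genes coloured by role and all 12774 comparable genes in grey (152 lie outside the axes). Dotted lines mark 2-fold and the dashed line equal ratios. The 5 targets lie in the upper left, with Id2 almost on the horizontal line at 0, Fst in the lower right, and Sostdc1 far to the right below the dashed line.

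With FGF10 and no DBZ (+NF relative to +N), Sostdc1 and Bmp4 were again the genes at least 2-fold higher, and none was 2-fold lower, beside 2.76% and 2.44% of all 13090 genes. This comparison and the DBZ comparison share the +N library, so their likeness is not independent. All 5 targets were lower, from −0.11 for Id2 to −0.90 for Bambi, beside 34.3% of all genes lower by any amount and a median of 0.12. At 1.5-fold, Sostdc1, Bmp4, Bmp7 and Fst were higher (9.97% of all genes) and Bambi, Bmp2 and Id1 lower (5.67% of all genes).

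With FGF10 in the presence of DBZ (+NFD relative to +ND), Smad6 and Id3 were at least 2-fold higher, beside 3.39% of all 13293 genes, and none was 2-fold lower, beside 3.11%. The log2 ratios were 1.25 for Smad6 (interval 1.10 to 1.41), 1.05 for Id3 (interval 1.01 to 1.09), 0.84 for Id2, 0.77 for Id1 and 0.38 for Bambi. All 5 were higher, as were 59.0% of all genes. This comparison shares the +ND library with +ND relative to +N, in which all 5 were lower. It also shares the +NFD library with +NFD relative to +NF, so these results are not independent. Centring on the median left Id3 at 0.96, under the 2-fold limit. At 1.5-fold, 4 of the 5 targets were higher (11.8% of all genes) and Bmp2 was lower (8.06% of all genes).

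Against +N, the medium with both additions (+NFD) had Sostdc1 and Bmp4 at least 2-fold higher, beside 5.85% of all 13358 genes, and none of the 10 genes 2-fold lower, beside 4.03%. The targets were close to their +N levels, with ratios from −0.19 for Bambi to 0.23 for Id3, except Smad6 at 0.63. At 1.5-fold, Bmp7 and Smad6 joined the higher genes (16.1% of all genes), and Bmp2 was lower at −0.88 (7.77% of all genes).

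**Figure D3:**
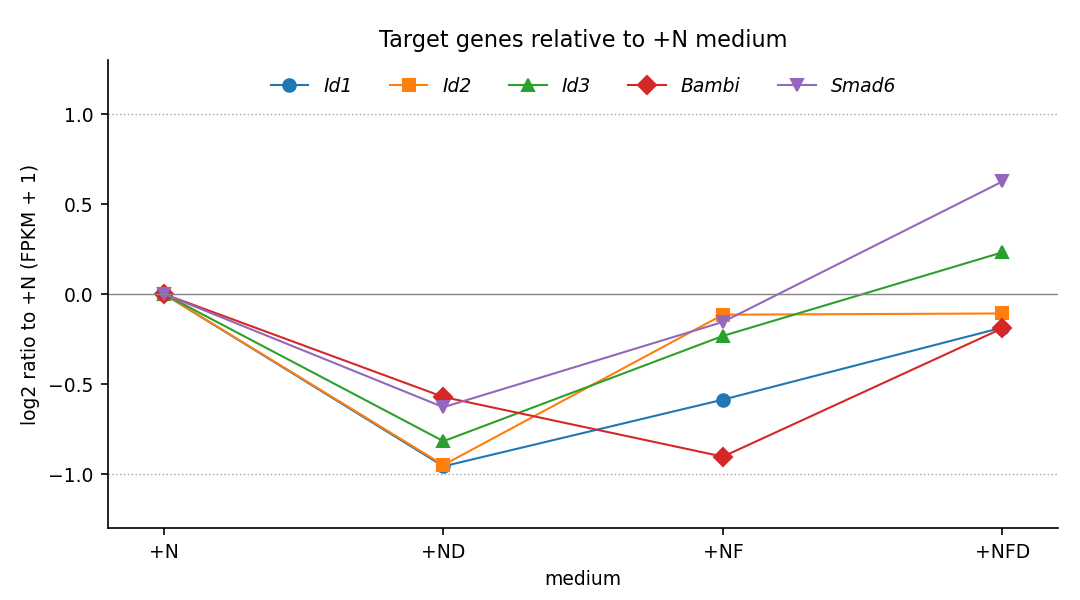
Log2 ratio of FPKM + 1 of the 5 target genes relative to +N in each medium, with 1 library per point, lines only to guide the eye and dotted lines at 2-fold. All 5 lie below 0 in +ND and +NF, and in +NFD they lie between −0.19 and 0.63.

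The rest of the pathway was described with 5 lists of ligands, receptors, Smads, antagonists and targets, 59 genes in all and 49 besides the 10 above. Of these 49, 31 reached 1 FPKM in at least 1 library and 6 were listed at 0 in all 4 (Bmp10, Bmp15, Gdf2, Chrdl2, Sost and Cer1). In +ND relative to +N, 2 of 29 that passed the filter were at least 2-fold higher and 3 lower (5.88% and 5.29% of all genes), with a median of −0.0039 against 0.10 over all genes. In +NFD relative to +NF the counts were 5 higher and 0 lower of 31 (3.72% and 2.69% of all genes). In +NF relative to +N they were 1 higher and 0 lower of 28 (2.76% and 2.44%). They were 4 higher and 0 lower of 31 in +NFD relative to +ND (3.39% and 3.11%). The same counts held in +NFD relative to +N (5.85% and 4.03%). Gdf6, counted as higher in +NFD relative to +NF and to +N, reached 1 FPKM only in +NFD. Bmp3, counted as higher in each comparison with +N, was under 1 FPKM in +N. Both entered these counts only through a library in which they were high.

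Among ligands, Bmp3, which acts against other Bmps, was at 0.79, 2.84, 6.36 and 4.37 FPKM, and like Bmp4 it was lowest in +N. Bmp6 ran the other way, at 4.39, 1.53, 2.04 and 2.29 FPKM. Gdf6 reached 1 FPKM only in +NFD, at 1.21. None of the 9 receptor and co-receptor genes that passed the filter was 2-fold apart in any of the 5 comparisons, and the type I receptor Bmpr1a lay between 25.7 and 33.3 FPKM. Smad1, Smad4 and Smad5, which carry the signal, were likewise within 2-fold, with Smad4 between 30.7 and 32.8 FPKM. In these comparisons, between 2.44% and 5.88% of all genes were past 2-fold in each direction. Most genes were thus within 2-fold, and this is not particular to the receptors or Smads.

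Among antagonists, Nbl1 (DAN) was at 246, 90.4, 285 and 268 FPKM, low only in +ND. Grem1 was at 2.87, 3.49, 2.42 and 8.15 FPKM, and Fstl1 at 15.9, 11.1, 8.60 and 22.9 FPKM, both highest in +NFD. The transcript of Noggin itself (Nog) was at 5.06, 5.15, 2.50 and 3.48 FPKM, and both libraries with FGF10 were lower than both without it, as for Bmp2. The Noggin protein in the media does not add to these values.

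Of the 12 listed targets, 10 passed the filter in every comparison. In +ND relative to +N, 8 of these were lower and 2 higher, with a median of −0.72, where 41.8% of all genes were lower. In +NFD relative to +NF, 9 were higher and 1 lower, with a median of 0.43, where 57.2% of all genes were higher. The list includes the 5 targets above, so its counts are not separate from theirs. Id4 was at 54.2, 28.4, 51.7 and 34.0 FPKM, low in both DBZ media and so unlike Id1, Id2 and Id3. Runx2, a bone and tooth transcription factor, was at 56.0, 26.9, 56.2 and 58.0 FPKM, low only in +ND. Tob1, which restrains Bmp signaling, was at 9.68, 35.1, 8.93 and 19.3 FPKM, high in both DBZ media. Sp7 was at 1.63, 1.97, 1.60 and 8.54 FPKM, high only in +NFD.

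**Figure D4:**
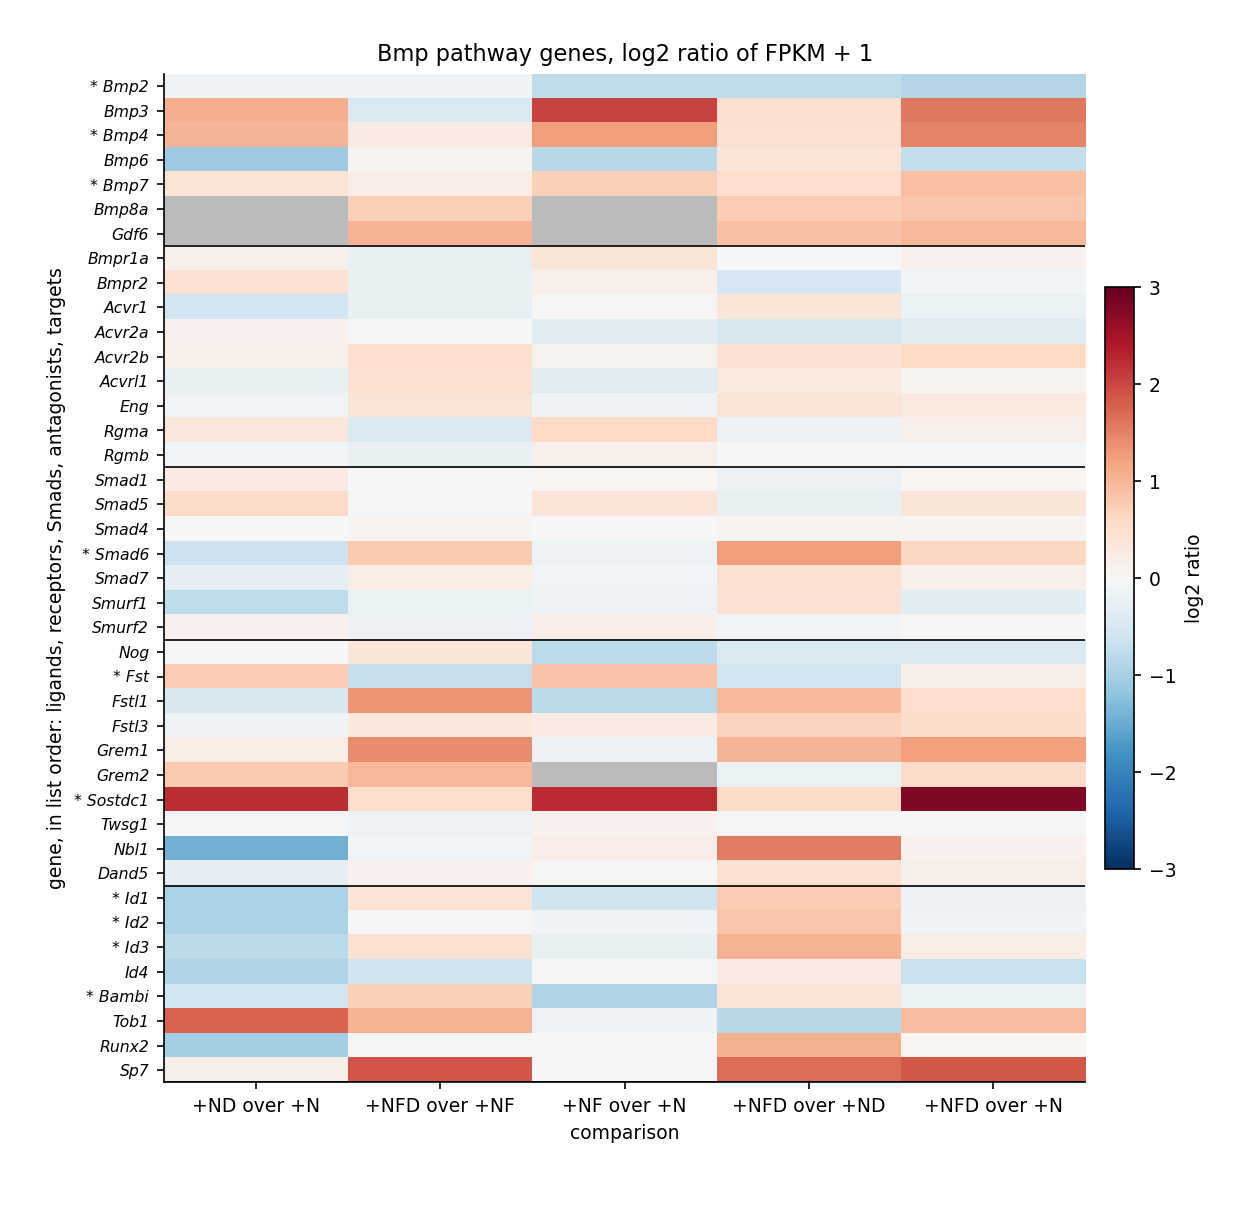
Log2 ratio of FPKM + 1 (colour) for the 41 pathway genes that passed the filter in at least 1 of the 5 comparisons (columns), in the order ligands, receptors, Smads, antagonists and targets, with asterisks on the 10 genes of the main description and grey where a gene did not pass. The receptor rows stay pale in all columns, Sostdc1 is the darkest row, and Id1, Id3, Bambi and Smad6 turn from blue in the first column to red in the second and in +NFD over +ND.

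The activins that Fst binds were within 2-fold on the FPKM + 1 scale in all 5 comparisons, as were most genes. The nearest to the limit was Inhbb in +NFD relative to +ND (log2 ratio 0.99). Inhbb lay between 32.7 and 66.1 FPKM, and Inhbc was listed at 0. Among transforming growth factor β ligands and targets, Tgfbi (34.9, 80.6, 7.57 and 25.3 FPKM) was at least 2-fold higher in +ND relative to +N. Tgfb2 (3.57, 3.35, 1.19 and 1.51 FPKM) was, like Tgfbi, 2-fold lower in +NF relative to +N, and Ctgf (6.19, 3.10, 6.87 and 2.02 FPKM) in +NFD relative to +NF.

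The labelled epithelial identity was checked with markers. Krt5 lay between 4984 and 6582 FPKM. Krt14 (12652, 5530, 8295 and 6090 FPKM), Epcam (122, 54.8, 218 and 98.4 FPKM) and Cdh1 (163, 68.0, 120 and 74.7 FPKM) were each more than 2-fold lower in +ND than in +N, and the median log2 ratio of the 6 epithelial markers there was −0.77. The fall was not uniform, since 4 of these 6 markers were lower in +ND and 2 were higher, where 41.8% of all genes were lower. Trp63 (88.5, 166, 100 and 124 FPKM) was higher by 0.90 on the log2 scale, and Cdh3 (43.0, 45.0, 40.4 and 50.9 FPKM) by 0.06. The +ND library was also the one in which Id1, Id2, Id3 and Smad6 were lowest. In +NFD relative to +N, the log2 ratios were −1.12 for Cdh1, −1.05 for Krt14, −0.31 for Epcam and −0.09 for Krt5. They were 0.24 for Cdh3 and 0.48 for Trp63, where the median over all genes was 0.18. Id3 and Smad6 were highest in +NFD. Endothelial markers were under 1 FPKM in all 4 libraries. Markers of fibroblasts and mesenchyme were present, their 9 genes summing to 186, 164, 111 and 445 FPKM. All 9 were higher in +NFD than in +NF, where 57.2% of all genes were higher. The ameloblast genes Amelx (0.27, 0.27, 0.12 and 323 FPKM) and Ambn (0.34, 0.14, 0.12 and 26.4 FPKM) were high in +NFD as well. The 7 markers of suprabasal keratinocytes summed to 624, 507, 40.7 and 241 FPKM, with a median log2 ratio of −2.95 in +NF relative to +N and −1.34 in +NFD relative to +ND. Among them Krt1 (0.30 against 52.2 FPKM) and Lor (12.7 against 220 FPKM) were higher in +ND than in +N, while Krt13 (435 against 129 FPKM) and Krt4 (69.0 against 9.98 FPKM) were lower, each value of +N given before that of +ND. Leukocyte markers summed to between 335 and 565 FPKM, of which Lyz2 made up most. In bulk RNA, fewer cells of a type and less RNA per cell cannot be told apart. The part of mesenchymal or ameloblast RNA in the +NFD levels of Smad6, Id3, Grem1, Fstl1 and Sp7, and that of the epithelial and suprabasal differences in the levels of the 10 genes, was not tested.

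For the 4 genes whose highest level was at least 2-fold their lowest on the FPKM + 1 scale, the 3 genes with the most similar profile over the 4 libraries were found among 9677 genes with a mean of at least 5 FPKM, by the root mean square difference of centred log2(FPKM + 1). The nearest to Bmp4 were Cd34 (0.06), Kank3 (0.08) and the ERK-induced factor Etv4 (0.08), and Cd34 ran from 94.3 FPKM in +N to 177, 217 and 272. The nearest to Sostdc1 were Crabp1 (0.15), a retinoic acid binding protein, Fxyd6 (0.20) and Ly6c1 (0.28), and Crabp1 ran from 32.0 FPKM in +N to 186, 201 and 284. For Id3 they were Fam131c (0.03), Gm16295 (0.08) and Gm17251 (0.09), and for Smad6 they were Efemp2 (0.10), Gm26566 (0.13) and Fam131c (0.13). Fst was 2.34 times as high in its highest library as in its lowest by FPKM, but under 2-fold on that scale, and was not searched. With 4 libraries, a similar profile is a description only.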

How the data were processed

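The authors trimmed reads of TruSeq libraries with Trim Galore 0.6.5 after FastQC 0.11.9 and mapped them with TopHat 2.1.1 to GRCm38. The deposited FPKM values are the transcript abundances that Cufflinks 2.2.1 gave. The strand setting and annotation release are not given in the sources used here. FPKM scales fragments to transcript length and library size, so a few abundant transcripts lower all other values of a library. The methods text gives the DBZ dose in mmol/L and the labels in µM.

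From the deposited FPKM, entries with the same symbol were summed (123 symbols had several), and log2((FPKM + 1)/(FPKM + 1)) was computed for 5 pairs of libraries wherever the higher one had 1 FPKM or more. With 1 library per medium, no test was made. Fragment numbers were approximated from the steps of FPKM × kb over 8334 genes with a single GENCODE M21 transcript of at least 1000 nt, at 0.0352 (+N), 0.0467 (+ND), 0.0351 (+NF) and 0.0346 (+NFD) per fragment. The ratios and the fragment steps were tested on simulated data with counting error only and nearly known lengths. There the steps came out close to those simulated. In the deposited values the low levels lay only loosely on the steps (mean cosine 0.27 to 0.37, where 1 is exact). Annotated transcript lengths were used, which may differ from those behind the FPKM, so depths and counting intervals are rough. The 10 genes and the lists were chosen with earlier results of these data known. Beyond the 10, pathway genes were named if 2-fold apart in a comparison or listed at 0, and the others named (among them Bmpr1a, the Smads, Nog, Id4 and the markers) were chosen after their values were seen. Some genes of the lists are not reported here. Python 3.11.15, numpy 2.4.6, pandas 2.3.3 and matplotlib 3.10.9 were used.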

Additional observations from a re-analysis of the deposited data

Results flagged for a closer look

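On the FPKM as deposited, for 6 of the 10 genes the DBZ ratio had opposite signs without and with FGF10, and the difference (the log2 ratio of +NFD to +NF minus that of +ND to +N) was 1.36 for Id1, 0.96 for Id2, 1.28 for Id3, 1.29 for Bambi, 1.41 for Smad6 and −1.44 for Fst. Each rests on 1 library per medium, and the differences were not tested. For Id2 the ratio with FGF10 was near 0 (0.0068, counting interval −0.06 to 0.08) and was −0.02 under upper-quartile scaling and −0.04 when centred on the median, and under either of these the sign for Id2 is not opposite.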

How the results depend on the processing

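The 5 comparisons of the 10 genes were recomputed under 7 alternatives (a pseudocount of 0.1 or none, a minimum of 5 FPKM or none, scaling to the upper quartile, centring on the median, and the highest of several entries). Of the 345 ratios, 332 kept their side of the 2-fold limit, 13 crossed it and 0 reversed, while 3 values of 2 ratios near 0 (Id2 in +NFD relative to +NF, Fst in +NFD relative to +N) changed sign. Upper-quartile scaling and centring on the median each gave 1 gene at least 2-fold higher and 2 lower in +ND relative to +N. Centring gave 1 gene lower in +NF relative to +N, 1 higher in +NFD relative to +ND and 1 lower in +NFD relative to +N. At 1.5-fold, a limit chosen after seeing the data, the higher and lower counts were 3 and 4 in +ND relative to +N, 2 and 1 in +NFD relative to +NF, 4 and 3 in +NF relative to +N, 4 and 1 in +NFD relative to +ND, and 4 and 1 in +NFD relative to +N. No paired analysis was possible because each medium has 1 library, and no library could be left out. Depth limits Fst most, whose levels rest on about 127 to 299 fragments.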
